A study of Mus musculus with 30 samples.

Results

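The comparison described here sets J774A.1 clones without the B2_Mm2.Dicer1 element (KO) against clones that carry it (WT), all after 4 h of interferon gamma (IFNG) at 100 ng/mL. It takes the KO1 and KO2 libraries after IFNG (6) and the WT1, WT2 and WT3 libraries after IFNG (9), which are 15 of the 30 RNA-seq libraries of the study. The other 15 are the same clones without treatment and are used only to ask whether a difference was there before IFNG. J774A.1 is a mouse macrophage-like tumour line, and each of the 5 clones was grown from a single cell and gave 3 libraries per treatment. The KO clones carry a homozygous CRISPR/Cas9 deletion of a single B2 SINE in the first intron of Dicer1, whereas the WT clones were expanded without electroporation. Electroporation, exposure to Cas9 and clonal history therefore differ between the groups together with the deletion and cannot be told apart from it. The labels give no culture or passage for the libraries of a clone, so the spread between libraries of a clone may be technical. The test of KO against WT took genotype as its only term. Its p-values therefore rest on the spread within and between clones together, and they count the 15 libraries of 5 clones as independent.

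B2 SINEs are short mobile elements of the mouse genome, and some copies carry binding sites for transcription factors of the interferon response. IFNG binds its receptor on macrophages and signals through JAK kinases, and factors such as IRF1 then switch on genes for antigen presentation, GTPases that attack intracellular microbes, chemokines and antiviral sensors. Dicer1 encodes the ribonuclease that cuts microRNA precursors. The study asked what an intronic element contributes to the IFNG response of its own gene and of others, and this comparison shows what differed between KO and WT cells in the activated state. The table of guides used in the study lists 2 spacers on each side of the element. The pair that the study names for the deletion amplicon is shown because it defines the edit, with the protospacer adjacent motif in capitals.
gEC005, upstream of the element: ggccagggaacggctttagaGGG
gEC007, downstream of the element: aaatagtcactgggcaacagTGG

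After IFNG, 3258 of 13637 genes tested differed between KO and WT libraries, which is 23.9% (1485 higher in KO, 10.9%, and 1773 lower, 13%). The test was edgeR's quasi-likelihood test, two-sided, with Benjamini-Hochberg adjustment and a threshold of 0.05, and every gene written below as risen, fallen, higher or lower passed it unless a value is given in its place. Most differences were small, since 229 of the called genes (7.03%) had an absolute log2 fold change (log2FC) of at least 1, and the median log2FC of all genes tested was 0.001. In 1087 of the genes tested (7.97%) the 6 KO libraries did not overlap the 9 WT libraries, with KO higher in 438 (3.21%) and lower in 649 (4.76%). KO1 alone differed from WT in 2934 of 14043 genes (20.9%) and KO2 alone in 1411 of 14042 (10.0%), with the same WT libraries in both. The called genes that were higher made up 8.76% of those tested in KO1 and 3.92% in KO2.

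The clones that were not edited also differed from each other. An F test among WT1, WT2 and WT3 after IFNG passed for 7124 of 13667 genes (52.1%). With clone as a random block in limma-voom, which allows for the correlation between libraries of a clone, 835 genes were called (6.12%). That correlation was a single value for all genes (0.585). A gene whose clones differ more than this is charged too little for it, so passing this fit is not a test with clones as the units. With counts summed per clone, 1 gene was called, namely Art3, and an exact permutation test of 3 clones against 2 cannot give a two-sided p below 0.1. WT1 stood apart from the other WT clones, and without it the count of called genes rose to 5992. For these reasons the mean of each clone is given for the genes described in detail. Most of these had both KO clone means outside the range of the WT clone means, and a fixed set and some other list members, chosen after their values were seen, are given as well. Without any test, 4352 of the genes tested (31.9%) had both KO clone means outside that range on the same side. 2844 of the genes tested (20.9%) were called, reached 1 CPM (a fragment count scaled to library size, with trimmed mean of M values factors) and had such clone means, 1315 of them higher (9.64%) and 1529 lower (11.2%). Counted fragments per library ranged from 15579730 to 37992642 after IFNG.

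Some chromosomes, or long stretches of them, were shifted. On chromosome 6, 345 of 681 genes tested were lower in KO and 19 were higher, and the chromosome's median log2FC was -0.251 in KO1 and -0.275 in KO2. On chromosome 17, 236 of 687 genes tested were higher and 17 lower, with medians of 0.189 and 0.182. The unedited clone WT1 was high on that chromosome too, since the median log2 CPM of its genes relative to the mean of the WT clones was 0.161 in WT1, -0.080 in WT2, -0.083 in WT3, 0.185 in KO1 and 0.191 in KO2. The proximal 60 Mb of chromosome 1 held 118 lower and 7 higher genes of 213 (median log2FC -0.299), whereas the genes from 80 Mb onwards had a median of -0.011. Genes that start from 60 to 80 Mb, Cd28 among them, are in neither set. Over the whole of chromosome 1, 214 of 875 genes tested were lower and 71 higher. Chromosome 2 from 140 Mb held 103 higher and 11 lower genes of 330 (median log2FC 0.174). Chromosome 12, which carries Dicer1, was lower in KO1 (median log2FC -0.360 over 486 genes) and not in KO2 (0.016). The X chromosome leaned upwards by less, with 85 of 428 genes tested higher (19.9%) and 23 lower (5.37%). Its median log2FC was 0.084 in KO1 and 0.048 in KO2. Of the called genes named below, Usp18, Ptpn6, Irf5, Clec4n, Clec4a1, Nod1, C1ra, Vwf, Slc2a3, Cdkn1b, Plxnd1, Herc6 and Mcm2 lie on chromosome 6. Pla2g7, Adgre1, H2-Ob, Tapbp, Tap1, Tnf, Sod2, Abcg1, Cdkn1a and Xpo5 lie on chromosome 17. Slc9a2, Slc40a1, Casp8 and Mcm3 lie on proximal chromosome 1, Cst3, Bcl2l1 and Samhd1 on distal chromosome 2, and Ifi27l2a and Nfkbia, like Dicer1, on chromosome 12. Cxcr3 and Il2rg are among the named genes on the X chromosome. The number of DNA copies was not measured, and the part of these shifts in the difference of a single gene was not tested. Scaling the libraries on chromosome 12 genes alone, tried for Dicer1, moved the median log2FC of all genes to 0.181 and the split of calls to 3746 higher and 643 lower. Since this scaling shifts all genes upwards in KO, the list counts given under it below do not test the direction of a list.

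**Figure D1:**
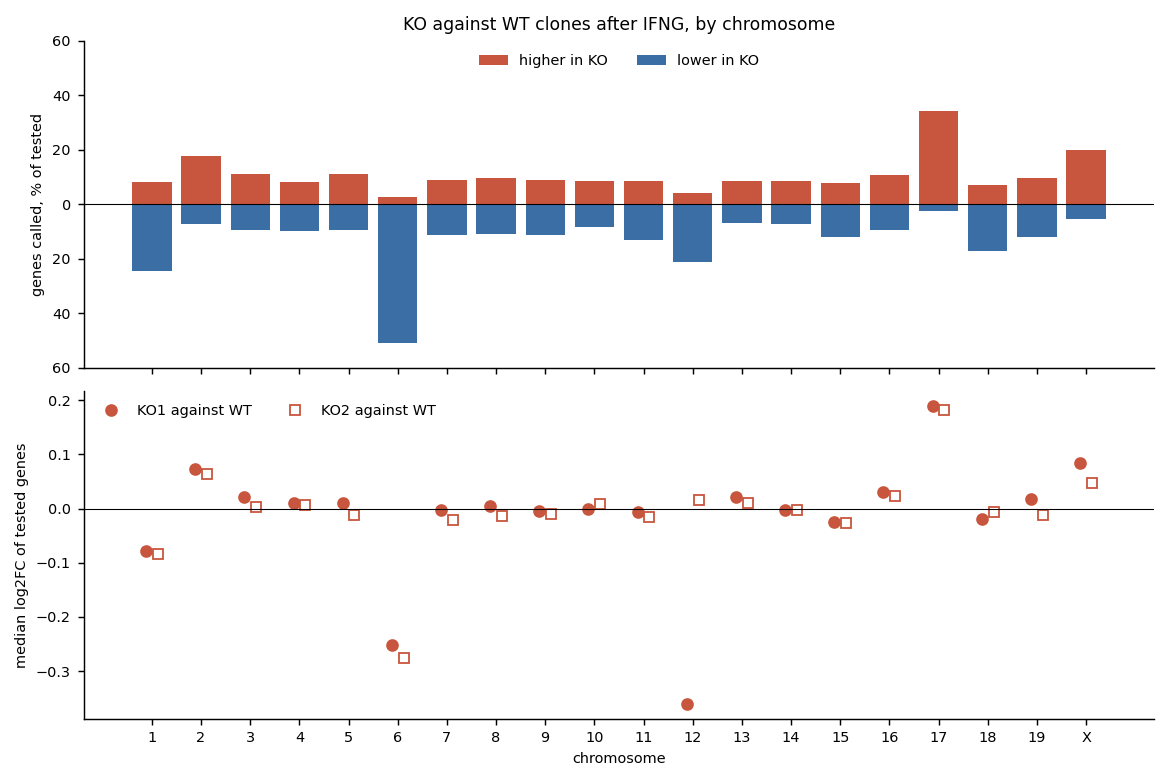
Genes called in KO against WT after IFNG as a percent of the genes tested on each chromosome (upper plot, red higher and blue lower in KO), and the median log2FC of the same genes in KO1 (filled) and KO2 (open) against WT (lower plot). Chromosome 6 reaches 50.7% lower and chromosome 17 reaches 34.4% higher, and the KO1 point alone is low on chromosome 12.

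Dicer1, the gene whose intron held the deleted element, was lower in both KO clones after IFNG. Its level was 136, 159 and 161 CPM in WT1, WT2 and WT3 and 75 and 99.6 CPM in KO1 and KO2. Over the 9 WT libraries Dicer1 ranged from 132 to 171 CPM (median 157) and over the 6 KO libraries from 71.5 to 105 CPM (median 88.9). No KO library reached the lowest WT library. The log2FC was -0.80 (SE 0.09, adjusted p = 1.35e-05 in edgeR's quasi-likelihood test), -1.01 in KO1 and -0.61 in KO2. When the libraries were scaled on chromosome 12 genes alone, the log2FC of Dicer1 was -0.64 (SE 0.07). The gene lies on the minus strand of chromosome 12 at 104687742-104751952 (mm10), and the count tables cover its exons, not the deleted intronic element.

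Pla2g7, Art3 and Calcrl, the marker genes of this comparison, separated the KO from the WT libraries without overlap. Pla2g7 encodes a secreted phospholipase A2 that degrades platelet-activating factor, and it was close to 0 in WT cells. Pla2g7 levels ran from 0 CPM in the lowest to 0.448 CPM in the highest WT library (median 0.165) and from 21.4 to 28.6 CPM in KO libraries (median 25.3). The WT libraries held 0 to 8 fragments of it and the KO libraries 405 to 980. All KO libraries were far above all WT libraries, with a log2FC of 7.34 (SE 0.27, adjusted p = 4.53e-11 in edgeR). Its clone means were 0.0163, 0.183 and 0.283 CPM in WT1, WT2 and WT3 and 22.7 and 27.6 CPM in KO1 and KO2. Pla2g7 lies at 43568098-43612201 on chromosome 17, whose median log2FC was 0.178, and the part of that shift in its difference was not tested.

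Art3, a member of the mono-ADP-ribosyltransferase family whose gene shares a stretch of chromosome 5 with Cxcl9, Cxcl10 and Cxcl11, went the other way. Over the 9 WT libraries Art3 ranged from 11.6 to 22.9 CPM (median 16.8) and over the 6 KO libraries from 0.158 to 0.505 CPM (median 0.317). The groups did not overlap, and the clone means were 12.8, 22.2 and 16.5 CPM in WT1, WT2 and WT3 and 0.325 and 0.302 CPM in KO1 and KO2. Its log2FC was -5.69 (SE 0.24, adjusted p = 2.70e-10 in edgeR), and it was the sole gene called on counts summed per clone (adjusted p = 0.0452, edgeR). Calcrl, the receptor subunit that binds adrenomedullin and calcitonin gene-related peptide with a RAMP partner, was higher in KO cells. Calcrl levels ran from 3.44 CPM in the lowest to 5.31 CPM in the highest WT library (median 4.05) and from 12 to 16.7 CPM in KO libraries (median 14.7). No libraries overlapped, the clone means were 3.62, 4.02 and 4.84 CPM in WT1, WT2 and WT3 and 14.8 and 14.3 CPM in KO1 and KO2, and the log2FC was 1.81 (SE 0.10, adjusted p = 9.63e-09 in edgeR). Of 10 genes for this receptor family and its ligands, 3 had enough counts to be tested, and Calcrl was the 1 called. The partner Ramp1, the receptor Calcr and the ligand genes Calca and Adm were among those too low to test.

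**Figure D2:**
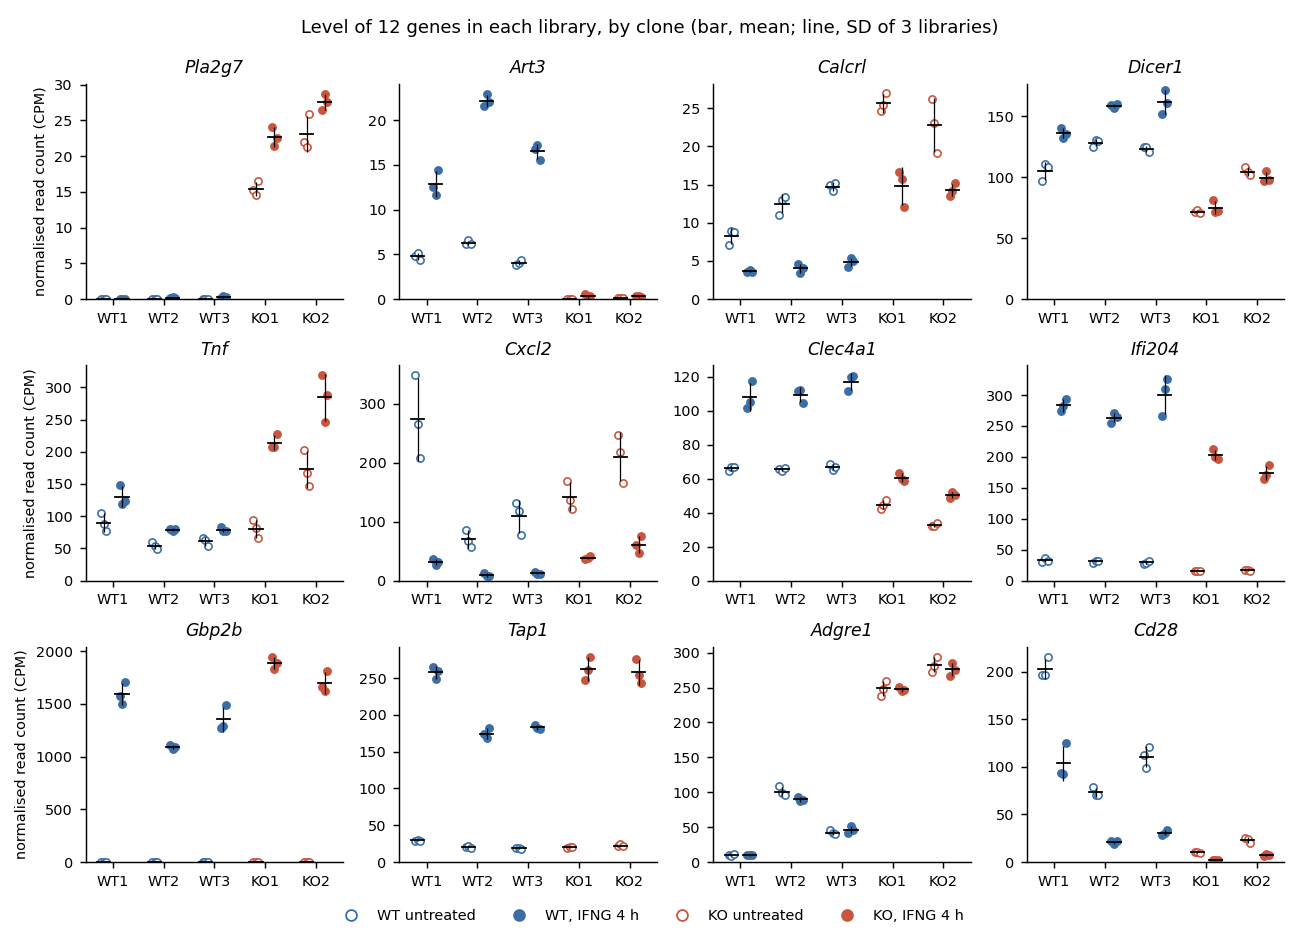
Level of 12 genes in CPM for each of the 30 libraries, grouped by clone, with open points for untreated and filled points for IFNG-treated libraries (WT blue, KO red, bar for the mean and line for the SD of 3 libraries). Pla2g7 is near 0 in all WT libraries, Art3 is near 0 in all KO libraries, and Adgre1 and Cd28 differ among the WT clones as well as between WT and KO.

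The promoters of these 3 genes are shown because their levels did not overlap between KO and WT, and that of Cxcl14 because it was the chemokine gene among the 12 strongest rises. The windows run from 250 bases before to 50 bases after a RefSeq start (GRCm38.p6, which is mm10). They were searched on both strands for the gamma-activated site of IFNG-responsive promoters (TTCNNNGAA, its own reverse complement) and for the letters GAAANNGAAA or TTTCNNTTTC, found in interferon-stimulated response elements. A match is a run of letters, and binding was not measured. Matches are in capitals.
Pla2g7, chr17:43568201-43568500, plus strand: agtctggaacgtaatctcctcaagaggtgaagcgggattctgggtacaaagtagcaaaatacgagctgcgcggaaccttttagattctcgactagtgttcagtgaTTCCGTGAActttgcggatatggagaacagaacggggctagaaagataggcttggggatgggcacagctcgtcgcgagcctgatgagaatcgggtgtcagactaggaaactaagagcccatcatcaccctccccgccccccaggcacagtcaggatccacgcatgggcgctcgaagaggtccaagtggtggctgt
Cxcl14, chr13:56296502-56296801, minus strand: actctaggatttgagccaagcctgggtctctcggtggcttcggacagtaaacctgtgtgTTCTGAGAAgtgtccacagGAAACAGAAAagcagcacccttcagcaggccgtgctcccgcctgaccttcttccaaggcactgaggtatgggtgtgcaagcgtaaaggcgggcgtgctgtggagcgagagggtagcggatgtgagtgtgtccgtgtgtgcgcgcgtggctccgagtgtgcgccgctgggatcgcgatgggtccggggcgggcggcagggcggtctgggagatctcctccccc
Calcrl, chr2:84425217-84425516, minus strand: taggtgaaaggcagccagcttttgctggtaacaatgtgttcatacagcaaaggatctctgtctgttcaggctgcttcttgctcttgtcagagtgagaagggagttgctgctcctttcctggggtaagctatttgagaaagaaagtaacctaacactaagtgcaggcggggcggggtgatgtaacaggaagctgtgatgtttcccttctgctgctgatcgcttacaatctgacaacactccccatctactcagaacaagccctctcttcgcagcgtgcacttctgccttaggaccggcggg
Art3, first of 3 starts listed, chr5:92331577-92331876, plus strand: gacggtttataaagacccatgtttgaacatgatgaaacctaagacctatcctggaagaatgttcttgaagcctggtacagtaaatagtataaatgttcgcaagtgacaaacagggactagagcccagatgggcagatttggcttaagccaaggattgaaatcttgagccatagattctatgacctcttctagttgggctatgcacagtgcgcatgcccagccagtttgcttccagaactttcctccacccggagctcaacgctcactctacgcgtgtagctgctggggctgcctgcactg
Pla2g7 held 1 gamma-activated site, and Cxcl14 held 1 with 1 response element nearby. Neither motif was in the Calcrl window or in any of the 3 Art3 windows. Over all 32851 promoter windows, 8.3% held the gamma-activated site and 3.44% the response element, and counted per gene, with a match in any of its windows, the shares were 9.55% and 3.99% of 27025. Of the 102 genes described, 75 had a window in the table, 12 of these genes held the gamma-activated site and 9 the response element.

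The other genes with the largest negative log2FC were mostly genes of low level. In this and later paragraphs, a gene that rose or fell from 3 values to 2 is given by the means of WT1, WT2 and WT3 and then of KO1 and KO2, all after IFNG. Ncs1, a neuronal calcium sensor, fell from 0.828, 2.2 and 4.03 to 0 and 0.0815 CPM (log2FC -5.56, SE 0.69). Rras2, a Ras family GTPase, fell from 3.71, 4.31 and 6.11 to 0.298 and 0.312 CPM (log2FC -3.88, SE 0.23), and Slc9a2, a sodium-proton exchanger, fell from 0.72, 1.92 and 4.6 to 0.418 and 0 CPM. Cd28, best known as the costimulatory receptor of T cells, was at 104, 20.8 and 30.8 CPM in WT1, WT2 and WT3 and 2.38 and 7.46 CPM in KO1 and KO2 (log2FC -3.37, SE 0.54). Its WT1 value was several times the WT2 and WT3 values, yet the highest KO library (8.26 CPM) was below the lowest WT library (18.7 CPM). Gas6, the bridging ligand of the TAM receptors that mediate uptake of dying cells, was at 9.31, 25.2 and 59.8 CPM in WT1, WT2 and WT3 and 6.17 and 0.142 CPM in KO1 and KO2 (log2FC -3.35, SE 0.78), so that KO1 was far above KO2. The zinc finger genes Zfp618 and Zfp704 fell from 12.2, 7.3 and 3.59 to 0.506 and 1.02 CPM and from 1.65, 8.53 and 14 to 0.338 and 1.56 CPM. Ltbp4, which binds latent TGF-beta, fell from 4.41, 8.76 and 14 to 0.903 and 1.37 CPM (log2FC -2.96, SE 0.34). Ccdc125 fell from 0.355, 1.77 and 1.35 to 0.0268 and 0.0862 CPM, the Wnt receptor Fzd1 from 0.337, 1.74 and 2.1 to 0.176 and 0.159 CPM and the zinc finger factor Glis2 from 0.606, 1.38 and 1.36 to 0.222 and 0.0739 CPM. Zfp704 and Fzd1 did not pass the limma-voom fit with clone as a random block (adjusted p = 0.0908 and 0.133, limma).

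Among the largest rises, Adgre1, on chromosome 17, which encodes the macrophage surface marker F4/80, was at 9.88, 89.6 and 46.3 CPM in WT1, WT2 and WT3 and 247 and 276 CPM in KO1 and KO2 (log2FC 2.43, SE 0.46, adjusted p = 0.00103 in edgeR). Adgre1 levels ran from 9.47 CPM in the lowest to 92.6 CPM in the highest WT library (median 46.3) and from 245 to 285 CPM in KO libraries (median 259). The groups did not overlap, but the WT clones spread widely, and without WT1 the log2FC was 1.95 (SE 0.18). Tiam1, an exchange factor that activates Rac, rose from 11.3, 11.9 and 19.3 to 45.4 and 50.4 CPM (log2FC 1.76, SE 0.14) and passed the limma-voom fit with clone as a random block (adjusted p = 6.58e-07, limma). Ppp1r12b, a myosin phosphatase subunit, rose from 33.6, 12.2 and 11.9 to 93.6 and 48.4 CPM (log2FC 1.88, SE 0.31). Oaf rose from 0.663, 1.1 and 0.537 to 2.95 and 3.06 CPM, the lipase gene Lipn from 1.01, 1.06 and 0.847 to 4.8 and 2.14 CPM, the sialyltransferase gene St6gal1 from 0.69, 3.13 and 1.16 to 3.57 and 7.46 CPM, and the adrenergic receptor gene Adra1a from 1.41, 0.88 and 0.816 to 4.38 and 2.5 CPM. The junctional adhesion molecule gene F11r rose from 2.47, 0.0422 and 1.02 to 2.96 and 5.2 CPM. Crym, which binds thyroid hormone, was at 0 in every WT1 and WT2 library and at 1.97 CPM in WT3, against 4.37 and 2.03 CPM in KO1 and KO2 (adjusted p = 0.0437 in edgeR). The Crym call was lost without either KO clone, without WT2, in DESeq2 and in a fit over all 30 libraries, and the F11r call was lost in DESeq2 and without either KO clone or WT3. Crym passed limma-voom with clone as a random block (adjusted p = 0.00607, limma), although the WT3 and KO2 means were nearly the same.

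Genes of the IFNG signalling core differed by small amounts and in both directions. Of 25 receptor, kinase, STAT, IRF and feedback genes tested, 4 were higher and 6 lower, with a median log2FC of -0.04 (all genes, 0.001). The shares of all genes were 10.9% higher and 13% lower. Irf1 was at 909, 736 and 772 CPM in WT1, WT2 and WT3 and 709 and 783 CPM in KO1 and KO2 (log2FC -0.11, SE 0.06, adjusted p = 0.224 in edgeR). The receptor subunit Ifngr2 rose from 60, 58.6 and 52.4 to 81.1 and 67.2 CPM and Irf5 from 208, 212 and 199 to 273 and 252 CPM. With clone as a random block in limma-voom 1 (Irf5) was higher and 3 lower (Ptpn6, Irf7 and Usp18). The members that fell hold activators of the interferon pathways (Irf3, Irf7 and the kinase gene Tyk2) as well as inhibitors, and the members that rose hold the phosphatase gene Ptpn1 and the repressor Irf2. Usp18, which restrains the type I interferon receptor and removes ISG15 from proteins, fell from 21.4, 33.6 and 25.4 to 15.5 and 15.5 CPM (log2FC -0.78, SE 0.12), and Ptpn6, the phosphatase SHP-1, fell from 395, 358 and 355 to 278 and 279 CPM (log2FC -0.41, SE 0.05). Irf7, an amplifier of type I interferon transcription, fell from 46.3, 71.1 and 58.3 to 31.2 and 41 CPM (log2FC -0.69, SE 0.13). Usp18 and Ptpn6 lie on chromosome 6, as does Irf5, which rose, and the part of the chromosome's shift in their falls was not tested. With scaling on chromosome 12 genes the list had 9 higher and 2 lower genes.

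The guanylate-binding proteins (GBP) and immunity-related GTPases (IRG), which attack the vacuoles of intracellular microbes, were not lower in KO cells in any called member. Of 19 tested, 5 were higher in KO and 0 lower (26.3% called, against 23.9% of all genes). The median log2FC was 0.03 (range -0.13 to 0.42). Gbp2b had 1594, 1092 and 1352 CPM in WT1, WT2 and WT3 and 1887 and 1701 CPM in KO1 and KO2 (log2FC 0.42, SE 0.10), Gbp2 had 687, 567 and 643 CPM in WT1, WT2 and WT3 and 727 and 734 CPM in KO1 and KO2 (log2FC 0.21, SE 0.06) and Tgtp2 rose from 74.9, 51.8 and 69.3 to 88 and 84.6 CPM (log2FC 0.40, SE 0.10). In limma-voom with clone as a random block Gbp2b passed (adjusted p = 0.0363) and Gbp2 and Tgtp2 did not (adjusted p = 0.16 and 0.0745, limma). GBP and Tgtp genes are close paralogs whose fragments the alignment could divide, so their single values are uncertain. Without KO1, 0 members were called, and 2 were higher without WT2 and 2 lower.

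The MHC class I pathway loads peptides for display to T cells. 4 of 24 genes were higher and 0 lower (median log2FC 0.11), against 10.9% higher and 13% lower of all genes, and 3 of the 4 lie on chromosome 17, as do 14 of those tested. Tapbp, the tapasin that bridges MHC class I to the peptide transporter, rose from 285, 221 and 234 to 363 and 308 CPM (log2FC 0.44, SE 0.08), and the transporter subunit gene Tap1 was at 258, 175 and 183 CPM in the WT clones and 262 and 258 CPM in the KO clones (log2FC 0.35, SE 0.10). Calr, the endoplasmic reticulum chaperone calreticulin on chromosome 8, rose from 1171, 1079 and 1072 to 1319 and 1306 CPM (log2FC 0.25, SE 0.04). With clone as a random block (limma-voom), 2 members were higher, Calr and Tapbp. The Tap1 call was lost when KO1, KO2, WT2 or WT3 was left out. The count rested on the clones, with 15 members higher without WT1 and 1 higher without KO1.

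The classical MHC class II genes were too low to be tested in either genotype. Ciita, the transactivator of the class II genes, held 0 to 6 fragments in the WT libraries and 6 to 10 in the KO libraries, too few to be tested. H2-Aa held at most 2 fragments in any library. Of 16 class II genes, 10 were tested, 1 was higher and 2 were lower, against 10.9% higher and 13% lower of all genes. Cd74, the invariant chain, was at 419, 150.3 and 126 CPM in WT1, WT2 and WT3 and 379 and 348 CPM in KO1 and KO2 (log2FC 0.65, SE 0.31, adjusted p = 0.144 in edgeR), with WT1 above the KO clones and WT2 and WT3 below them. Without WT1 the log2FC of Cd74 was 1.39 (adjusted p = 4.35e-08, edgeR). Ctss, the cathepsin that trims the invariant chain, rose from 584, 500.1 and 507 to 756 and 666 CPM (log2FC 0.43, SE 0.06). H2-Ob, a subunit of the peptide-loading regulator H2-O, fell from 0.423, 1.61 and 2.08 to 0.323 and 0.394 CPM at a very low level (log2FC -1.92, SE 0.43).

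Antiviral genes leaned towards lower levels in KO cells. None of the 30 type I interferon signature genes tested was higher and 9 were lower (all genes, 13%), with a median log2FC of -0.29. Ifi27l2a fell from 119, 86 and 89.3 to 53.4 and 63.2 CPM (log2FC -0.75, SE 0.11), Ifi44l from 24.9, 27.1 and 32.2 to 20.3 and 19.4 CPM (log2FC -0.50, SE 0.08), and Oas3, a synthetase that activates RNase L, from 107, 119 and 114 to 83.1 and 83.3 CPM (log2FC -0.44, SE 0.05). These 3 passed limma-voom with clone as a random block (adjusted p = 0.0077, 0.0151 and 0.00648, limma) and the other called members did not. The others called lower were Slfn8, Herc6, Oas1g, Xaf1, Mx2 and Oas1a, of which Herc6 lies on chromosome 6. Ifi27l2a lies on chromosome 12, which was lower in KO1, and with scaling on chromosome 12 genes its log2FC was -0.58 (SE 0.11). Without WT1, 19 members were lower, and with scaling on chromosome 12 genes 4 were lower and 2 higher.

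The nucleic acid sensors showed the highest share of calls of any list with at least 8 genes tested. Of 21 tested, 12 were lower and 1 was higher (61.9% called, against 23.9% of all genes), with a median log2FC of -0.28. The Ifi200 family, sensors and regulators encoded in a cluster on distal chromosome 1, made up most of them. Ifi204 had 283, 264 and 301 CPM in WT1, WT2 and WT3 and 203 and 174 CPM in KO1 and KO2 (log2FC -0.58, SE 0.07), Ifi209 fell from 3.37, 3.14 and 2.45 to 1.74 and 1.57 CPM (log2FC -0.85, SE 0.18), and Ifi213, Ifi205, Mndal, Ifi203, Ifi211, Aim2 and Ifi202b were also lower. Dhx58, the RNA helicase LGP2 on chromosome 11, fell from 41.8, 37.9 and 34.9 to 22.8 and 26.3 CPM (log2FC -0.63, SE 0.08). Samhd1, the nucleotide hydrolase that restricts retroviruses, on distal chromosome 2, was the member that rose, from 854, 693 and 752 to 1038 and 1087 CPM (log2FC 0.47, SE 0.06). In limma-voom with clone as a random block 4 members were lower (Ifi204, Ifi211, Ifi213 and Dhx58) and 1 was higher. Members of the Ifi200 family are close paralogs, and their single values are uncertain. With scaling on chromosome 12 genes 4 members were lower, and 7 without KO1.

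Chemokines leaned the other way. Of 15 tested, 7 were higher in KO and 1 was lower (all genes, 10.9% and 13%), with a median log2FC of 0.36. In limma-voom with clone as a random block 4 were higher (Cxcl2, Ccl9, Ccl4 and Ccl2) and 1 lower (Ccl12). Cxcl2, a neutrophil attractant, was at 31.5, 9.37 and 12.5 CPM in WT1, WT2 and WT3 and 38.6 and 61.1 CPM in KO1 and KO2 (log2FC 1.48, SE 0.32). Over the 9 WT libraries Cxcl2 ranged from 7.66 to 37.4 CPM (median 12.5) and over the 6 KO libraries from 37.1 to 76.2 CPM (median 44.2). The Cxcl2 call was lost without KO2 (log2FC 1.12, adjusted p = 0.0667, edgeR). The sole overlap was a WT1 library that lay just above the lowest KO1 library. Ccl9 rose from 491, 367 and 294 to 738 and 589 CPM (log2FC 0.79, SE 0.14), Ccl4 from 114, 79 and 74.3 to 132 and 130.3 CPM and Ccl2 from 497, 481 and 408 to 618 and 672 CPM, all attractants of monocytes or other leukocytes, and the fall was in Ccl12 (from 108, 139 and 119 to 75.8 and 86.9 CPM). Cxcl14 rose from 0.547, 0.1 and 0.3 to 0.903 and 1.58 CPM at a very low level. Of the IFNG-induced CXCR3 ligand genes, Cxcl9 lies beside Art3 and Cxcl10 starts within the span of Art3 on the opposite strand, and neither shared its fall. Cxcl9 rose from 34.2, 40.9 and 39.1 to 58.2 and 48.9 CPM (log2FC 0.49, SE 0.11), which was lost in limma-voom with clone as a random block (adjusted p = 0.192, limma), and Cxcl10 was at 705, 914 and 809.5 CPM in WT1, WT2 and WT3 and 1034 and 613 CPM in KO1 and KO2 (log2FC 0.03, SE 0.15, adjusted p = 0.917 in edgeR), with KO1 above and KO2 below all WT clones. Of 8 genes tested in this stretch of chromosome 5, Art3 was the 1 that fell, and Naaa, an amidase that breaks down N-acylethanolamines, rose from 10.1, 13.4 and 19.4 to 32.8 and 26.3 CPM (log2FC 1.05, SE 0.17).

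Receptors for chemoattractants changed in both directions, with 4 higher and 2 lower of 17 tested (35.3% called, against 23.9% of all genes). With clone as a random block, 2 were higher and 1 lower. Cxcr3 rose from 2.1, 2.12 and 1.75 to 5.43 and 3.07 CPM and Gpr84, a receptor for medium-chain fatty acids, rose from 150.4, 115 and 100.1 to 249.8 and 159.8 CPM (log2FC 0.75, SE 0.15). Ptafr, the receptor of the platelet-activating factor that the Pla2g7 product degrades, rose from 69.7, 57.2 and 55.7 to 101 and 81.9 CPM (log2FC 0.59, SE 0.09).

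Among cytokines and mediators Tnf stood out, at 130.4, 79.1 and 78.6 CPM in WT1, WT2 and WT3 and 214 and 284 CPM in KO1 and KO2. Over the 9 WT libraries Tnf ranged from 76.3 to 149 CPM (median 80.6) and over the 6 KO libraries from 208 to 319 CPM (median 237). No KO library overlapped the WT libraries, and the log2FC was 1.38 (SE 0.16, adjusted p = 1.55e-05 in edgeR and 1.70e-04 in limma-voom with clone as a random block). Tnf lies on chromosome 17, whose median log2FC was 0.178 and which was also high in WT1, and without WT1 the log2FC of Tnf was 1.66 (SE 0.09). Il1rn, the interleukin 1 receptor antagonist, rose from 50.4, 50.7 and 38.9 to 128 and 61.8 CPM (log2FC 1.02, SE 0.21), mainly in KO1. Il18 fell from 8.63, 8.76 and 9.16 to 5.53 and 5.94 CPM (log2FC -0.62, SE 0.08). Il1b was too low to be tested, with 0 to 11 fragments in the WT and 2 to 40 in the KO libraries, and its clone means were 0.39, 0.041 and 0.0805 CPM in WT1, WT2 and WT3 and 0.178 and 1.23 CPM in KO1 and KO2. Nos2, the inducible nitric oxide synthase, was at 45.3, 1.94 and 1.01 CPM in WT1, WT2 and WT3 and 10.0 and 5.37 CPM in KO1 and KO2, so that WT1 alone was high. Its log2FC was -1.09 (SE 0.90, adjusted p = 0.412 in edgeR), and without WT1 it turned to 2.37 (adjusted p = 4.47e-05). In the list as a whole 4 genes were higher and 3 lower of 24 tested (29.2% called, against 23.9% of all genes). With clone as a random block, 1 was higher and 1 lower.

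Genes of the NF-kB pathway leaned upwards, with 8 of 22 tested higher and 1 lower (40.9% called, against 23.9% of all genes). Their median log2FC was 0.21. Nfkbia, the inhibitor I-kappa-B alpha that NF-kB itself induces, rose from 118, 109 and 94 to 156 and 189 CPM (log2FC 0.69, SE 0.09), although its chromosome 12 was lower in KO1. Bcl3 rose from 35.9, 30.4 and 31.1 to 49.2 and 42.4 CPM (log2FC 0.50, SE 0.08) and Nfkbid from 9.55, 11.6 and 9.75 to 12.2 and 12.1 CPM (log2FC 0.24, SE 0.08). Tnfaip3, the ubiquitin-editing inhibitor A20, and Traf1 were also called higher, but KO2 was not above WT1 in either, with Tnfaip3 at 25.5, 10.9 and 9.02 CPM in WT1, WT2 and WT3 and 47.1 and 25.5 CPM in KO1 and KO2 and Traf1 at 11, 3.91 and 1.71 CPM in WT1, WT2 and WT3 and 25.9 and 8.05 CPM in KO1 and KO2. In limma-voom with clone as a random block Nfkbia and Bcl3 were the 2 members called. The Nfkbid call was lost in that fit (adjusted p = 0.245, limma), without a count filter, and without KO1, KO2, WT1 or WT3. Without KO1, 2 members of the list were higher, and 3 without WT2.

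**Figure D3:**
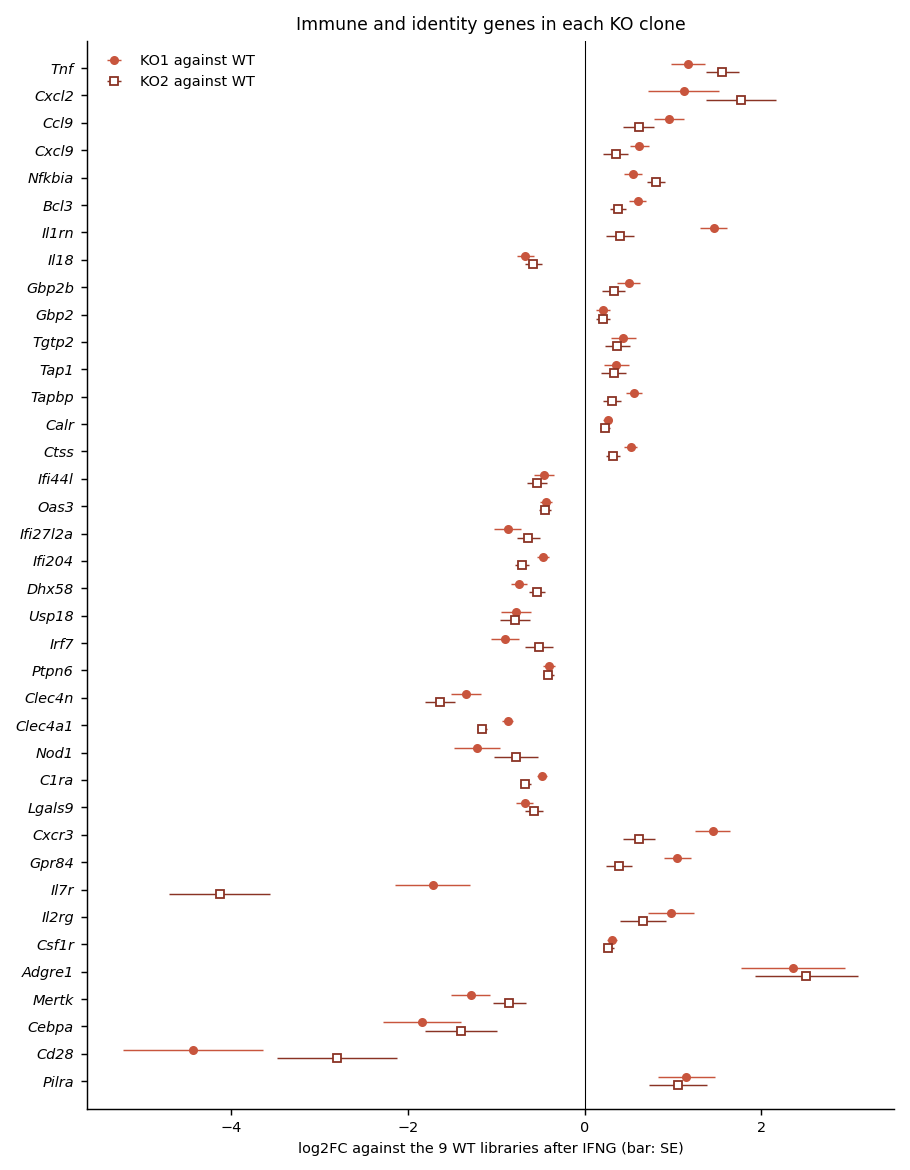
The log2FC of 38 immune and identity genes in KO1 (filled) and KO2 (open) against the same 9 WT libraries after IFNG, with bars for the SE. Tnf, Cxcl2 and Adgre1 lie to the right in both clones, Clec4n, Il7r and Cd28 to the left, and the interferon-linked genes lie closer to 0.

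Of 28 cytokine receptor genes, 5 were higher and 7 lower (42.9% called, against 23.9% of all genes). With clone as a random block, 4 were higher and 3 lower. Il7r, the interleukin 7 receptor, was at 12, 10.8 and 4.24 CPM in WT1, WT2 and WT3 and 2.73 and 0.558 CPM in KO1 and KO2 (log2FC -2.51, SE 0.47). Il12rb1 fell from 7.97, 1.91 and 2.2 to 1.02 and 1.9 CPM (log2FC -1.45, SE 0.44) with WT1 far above the rest, and the call was lost without WT1 (log2FC -0.47, adjusted p = 0.106, edgeR). Il2rg, the common gamma chain, rose from 20.2, 12.7 and 9.06 to 27.5 and 22.2 CPM (log2FC 0.83, SE 0.20). Csf1r, the receptor of the growth factor that macrophages depend on, rose from 1161, 1038 and 1089 to 1353 and 1323 CPM (log2FC 0.29, SE 0.05).

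Pattern recognition receptors differed in both directions. 9 of 45 tested were higher and 12 lower (46.7% called, against 23.9% of all genes). On chromosome 6 lie 7 of the lower ones and 11 of those tested. The C-type lectins Clec4n (Dectin-2) and Clec4a1 fell from 16.6, 24.2 and 20.5 to 8.01 and 6.61 CPM (log2FC -1.48, SE 0.13) and from 108, 109 and 117 to 60.6 and 50.2 CPM (log2FC -1.01, SE 0.06). Both lie on chromosome 6, whose median log2FC was -0.264, and its part in their falls was not tested. Clec4a1 levels ran from 102 CPM in the lowest to 120.4 CPM in the highest WT library (median 111) and from 48.3 to 63.5 CPM in KO libraries (median 55.3). Nod1, a sensor of bacterial peptidoglycan also on chromosome 6, fell from 7.58, 7.1 and 12.5 to 3.89 and 5.27 CPM (log2FC -0.98, SE 0.20). Receptors that rose include Tlr2, a sensor of bacterial lipoproteins (from 127, 151 and 138 to 254 and 174 CPM), Tlr8 (from 31.1, 32.3 and 42 to 62.4 and 58.5 CPM) and Tlr13, a sensor of bacterial ribosomal RNA (from 226, 112 and 104 to 288 and 243 CPM), and these 3 also passed limma-voom with clone as a random block. Tlr3, the sensor of double-stranded RNA, was lower by the test (from 74.9, 127 and 130 to 78.9 and 70.7 CPM), with WT1 between KO2 and KO1, and the call was lost in limma-voom with clone as a random block (adjusted p = 0.0897, limma). With scaling on chromosome 12 genes the split turned to 14 higher and 6 lower.

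Scavenger and Fc receptors showed wide clone differences, with 7 higher and 6 lower of 33 tested (39.4% called, against 23.9% of all genes). With clone as a random block, 3 were higher and 6 lower. Stab1, a scavenger receptor, was at 83, 593 and 809 CPM in WT1, WT2 and WT3 and 62.3 and 69.4 CPM in KO1 and KO2 (log2FC -2.91, SE 0.55), and without WT1 its log2FC was -3.41. Mertk, a receptor that takes up apoptotic cells and whose ligand is Gas6, fell from 16.2, 26.1 and 24.7 to 9.04 and 12.5 CPM (log2FC -1.05, SE 0.16). Pilra, an inhibitory receptor, rose from 77.8, 32.2 and 31.2 to 104 and 98.4 CPM (log2FC 1.11, SE 0.24). Among costimulatory and checkpoint genes, 2 of 18 were higher and 4 lower (33.3% called). Cd80, a ligand of Cd28, fell from 0.988, 2.16 and 1.2 to 0.936 and 0.601 CPM at a low level, Cd244a from 1.57, 0.902 and 1.09 to 0.37 and 0.66 CPM, and Lgals9 from 51.5, 65.9 and 53.6 to 35.5 and 38.5 CPM (log2FC -0.62, SE 0.08), of which Lgals9 alone passed limma-voom with clone as a random block (adjusted p = 7.78e-04, limma). Of 11 complement genes, 1 was higher and 2 were lower (27.3% called, close to the 23.9% of all genes). C1ra, a protease of the first complement component on chromosome 6, fell from 56.7, 51.2 and 54.3 to 38.5 and 34.1 CPM (log2FC -0.57, SE 0.05). For oxidant and iron handling, 2 of 16 genes rose and 3 fell (31.2% called). The iron exporter Slc40a1 (ferroportin), on proximal chromosome 1, fell from 95.4, 144 and 182 to 44.6 and 77.1 CPM (log2FC -1.21, SE 0.21), the mitochondrial superoxide dismutase Sod2, on chromosome 17, rose from 248, 213 and 236 to 478 and 306 CPM (log2FC 0.76, SE 0.12), and the cystine transporter Slc7a11 fell from 6.12, 7.47 and 7.47 to 4.01 and 5.31 CPM.

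**Figure D4:**
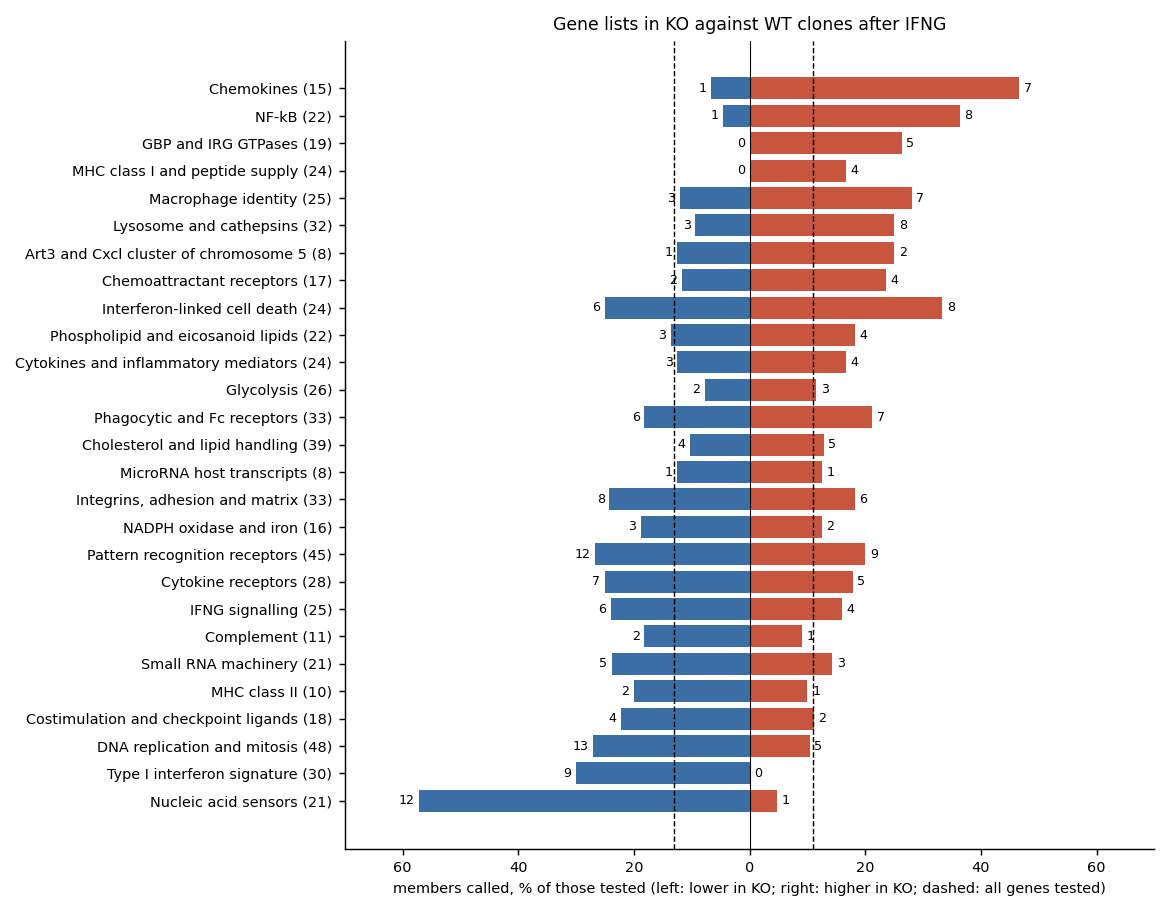
Members called higher (red, right) or lower (blue, left) in KO after IFNG as a percent of the members tested, for the 27 lists with at least 8 tested (number in brackets), with the number called beside each bar and dashed lines at the percents of all genes tested. Chemokine and NF-kB genes extend to the right, and nucleic acid sensor and type I interferon genes to the left.

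Macrophage identity genes were expressed in both genotypes. All 25 identity genes reached 1 CPM in WT and in KO, and their summed level was 11432 to 12743 CPM in WT and 13802 to 14471 CPM in KO libraries. Of these, 7 were higher and 3 lower, against 10.9% higher and 13% lower of all genes. Cebpa, a myeloid transcription factor, fell from 2.99, 5.46 and 8.98 to 1.62 and 2.19 CPM (log2FC -1.59, SE 0.30), and Spi1, which encodes PU.1, rose from 174, 210.2 and 196 to 278 and 249 CPM (log2FC 0.45, SE 0.07). Markers of other leukocytes were nearly absent, with a summed level of 3.81 to 8.63 CPM in WT and 5.97 to 7.44 CPM in KO over 26 genes, and 13 of them at 0 in all WT libraries. Markers of stromal, epithelial and endothelial cells summed to 76 to 87.2 CPM in WT and 70.9 to 80 CPM in KO, and among them Vwf, on chromosome 6, fell from 8.15, 7.62 and 8.35 to 4.91 and 4.08 CPM (log2FC -0.83, SE 0.10). In bulk cultures, fewer cells with a transcript and less transcript per cell cannot be told apart.

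Outside immunity, called genes were found in several functions, whose shares of calls are to be set beside the 23.9% of all genes. In phospholipid and eicosanoid metabolism 4 of 22 genes were higher and 3 lower (31.8% called). Besides Pla2g7 and Ptafr, the prostaglandin E2 receptor Ptger4 rose from 42.5, 23.8 and 18.6 to 83 and 52.9 CPM (log2FC 1.27, SE 0.22). Lipid handling was close to the background, with 5 higher and 4 lower of 39 (23.1% called). Lipoprotein lipase (Lpl) rose from 554, 291 and 394 to 1030.1 and 556 CPM (log2FC 0.95, SE 0.21), with KO2 close to WT1, and without KO1 its log2FC was 0.42 (adjusted p = 0.248, edgeR). The cholesterol exporter Abcg1, on chromosome 17, rose from 213, 126 and 126 to 257 and 244 CPM (log2FC 0.70, SE 0.15), and the desaturase Scd2 from 2030.1, 1387 and 1379 to 2052 and 2187 CPM. Among lysosomal genes 8 of 32 were higher and 3 lower (34.4% called). The protease inhibitor cystatin C (Cst3), on distal chromosome 2, rose from 388, 242 and 228 to 538 and 481 CPM (log2FC 0.84, SE 0.14), whereas the protease gene Ctsh fell from 5.24, 9.54 and 17.6 to 1.3 and 3.5 CPM (log2FC -2.15, SE 0.39) and Naglu, which degrades heparan sulphate, fell from 65.1, 56.3 and 57.5 to 32.8 and 46.6 CPM. Glycolysis was also close to the background (3 higher and 2 lower of 26, 19.2% called against 23.9% of all genes). Its glucose transporter Slc2a3, on chromosome 6, fell from 69.1, 85.2 and 79.1 to 56.1 and 56.4 CPM, the lactate transporter Slc16a1 rose from 121, 147 and 135 to 159 and 184 CPM and the aldolase gene Aldoc from 136, 91.2 and 101 to 138 and 139.5 CPM. This list depended on WT1, without which 18 members were higher and 4 lower.

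Of 48 genes of DNA replication and mitosis, 13 were lower and 5 higher (median log2FC -0.07, 37.5% called). With scaling on chromosome 12 genes, which shifts all genes upwards in KO, 1 was lower and 12 were higher. The cyclin-dependent kinase inhibitor Cdkn1a (p21), on chromosome 17, rose from 235, 170.2 and 159 to 381 and 297 CPM (log2FC 0.85, SE 0.12), its relative Cdkn1b (p27), on chromosome 6, fell from 69.8, 58.6 and 62.9 to 36.4 and 46.5 CPM (log2FC -0.62, SE 0.09), and cyclin D1 (Ccnd1) rose from 338, 418 and 329.7 to 518 and 453 CPM (log2FC 0.43, SE 0.08). The 13 that fell include the mitotic genes Aurkb, Kif11, Cenpe, Ccnb1 and Top2a and the helicase subunits Mcm2 and Mcm3. With clone as a random block, 3 members were lower (Cdkn1b, Aurkb and Cenpf) and 3 higher (Cdkn1a, Ccnd1 and Pcna). Of 21 genes for small RNA production and action, 3 were higher and 5 lower, against 10.9% higher and 13% lower of all genes. Besides Dicer1, the Argonaute partner Tnrc6b fell from 97.1, 121 and 129 to 87 and 89.2 CPM (log2FC -0.39, SE 0.08) and Xpo5, which exports microRNA precursors and lies on chromosome 17, rose from 123, 123 and 117 to 147 and 147 CPM (log2FC 0.29, SE 0.04). MicroRNAs themselves were not measured. Of 8 host genes tested, the Mir142 locus fell from 1.49, 1.49 and 1.3 to 0.973 and 0.411 CPM (log2FC -1.05, SE 0.25), a value that counts fragments of a longer polyadenylated transcript, and Mir155hg rose from 0.521, 0.306 and 0.164 to 0.829 and 0.631 CPM.

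Adhesion and matrix genes gave 6 higher and 8 lower of 33 tested (42.4% called, against 23.9% of all genes). With clone as a random block, 2 were higher and 3 lower. Fibronectin (Fn1) fell from 32.3, 16.3 and 17.9 to 9.3 and 12.9 CPM (log2FC -0.99, SE 0.21), the semaphorin receptor Plxnd1, on chromosome 6, from 281, 233 and 220.4 to 172 and 136 CPM (log2FC -0.67, SE 0.10), and embigin (Emb) rose from 0.772, 0.679 and 0.563 to 1 and 1.17 CPM at a low level. For cell death, 8 of 24 genes were higher and 6 lower (58.3% called, against 23.9% of all genes), and with clone as a random block 2 were higher and 2 lower. Casp8, the initiator caspase of death receptors on proximal chromosome 1, fell from 94.6, 114 and 116 to 62.3 and 70.4 CPM (log2FC -0.71, SE 0.07), and Mlkl, the effector of necroptosis, from 72.3, 81.2 and 83.8 to 57.8 and 67.6 CPM (log2FC -0.33, SE 0.06). Bcl2l1, which encodes the survival factor BCL-XL and lies on distal chromosome 2, rose from 214, 122 and 128 to 232 and 226 CPM (log2FC 0.57, SE 0.15), and Bcl2a1b and Bcl2a1d fell from 5.15, 22.5 and 3.89 to 2.92 and 3.43 CPM and from 1.14, 5.94 and 1.77 to 1.11 and 1.03 CPM, near-identical paralogs whose values are uncertain. WT2 was far above the other WT clones in both, and without it the log2FC was -0.52 for Bcl2a1b and -0.42 for Bcl2a1d, the latter not called. In limma-voom with clone as a random block, 23 of the 96 called genes that the rule named were not called. These were Zfp704, Fzd1, Cxcl14, Tgtp2, Gbp2, Ifi209, H2-Ob, Tap1, Cxcr3, Il1rn, Il12rb1, Nod1, Cd244a, Cd80, Nfkbid, Slc7a11, Slc16a1, Aldoc, Mir142, Emb, Bcl2a1b, Bcl2a1d and Cxcl9. Of the other list members given with clone means, Ifngr2, Mir155hg, Tlr3, Tnfaip3 and Traf1 were not called in that fit.

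Some calls were lost when a KO clone was left out. Leaving out KO1 ended 29 of the 96 calls, those of Zfp704, Crym, F11r, Irf7, Gbp2b, Tgtp2, Gbp2, H2-Ob, Tapbp, Tap1, Gpr84, Il1rn, Il12rb1, Il2rg, Nod1, Pilra, Cd244a, Nfkbid, Slc7a11, Lpl, Abcg1, Scd2, Aldoc, Ccnd1, Fn1, Emb, Bcl2a1b, Bcl2a1d and Cxcl9. Leaving out KO2 ended 15, those of Crym, Cxcl14, St6gal1, F11r, Gbp2, Tap1, Cxcl2, Cd80, Nfkbid, Scd2, Slc16a1, Aldoc, Emb, Bcl2a1b and Bcl2a1d. Among the other list members given with clone means, the calls of Ifngr2, Ccl4, Tlr3, Tlr13, Tnfaip3, Traf1, Bcl2l1, Mlkl and Mir155hg were lost without KO1, and those of Tlr3 and Bcl2l1 without KO2.

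Most of the differences were already there before IFNG. In the untreated libraries 3689 of 13886 genes were called (26.6%). Of the 3258 genes called after IFNG, 2457 (75.4%) were also called in the untreated libraries of the same clones with the same sign, which is 66.6% of the 3689 untreated calls, and 4 were called with the opposite sign. A direct test of whether the KO - WT difference changed with IFNG (treatment by genotype, all 30 libraries) passed for 150 of 14682 genes (1.02%), 100 (0.681%) towards higher and 50 towards lower levels in KO. This fit allows each clone its own level but not its own response to IFNG, so its p-values count libraries as independent. No fit with clone as a random block was run for this term. The test passed for 69 of the genes called after IFNG (2.12%). The count was 21 without KO1, 35 without WT2, 73 without WT3 and 570 without WT1. Of the 12 described genes that passed, Dicer1, Calcrl, Tap1 and Cxcl2 passed with any single clone left out.

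The interferon genes differed between the 2 states. Untreated, 7 of 11 GBP and IRG genes tested were lower in KO and 0 higher (median log2FC -0.47), whereas after IFNG none of the 19 tested was lower. The treatment by genotype term was positive and passed for 7 of them, and negative and passed for 0 (all genes, 0.681% and 0.341%). Gbp2b went from a log2FC of -0.47 untreated to 0.42 after IFNG (difference 0.85, SE 0.13, adjusted p = 1.72e-04 in edgeR). Its untreated level was low, at 3.43, 3.25 and 2.7 CPM in WT1, WT2 and WT3 and 2.06 and 2.46 CPM in KO1 and KO2. Untreated Gbp2 was likewise at 3.9, 3.74 and 2.75 CPM and at 2.3 and 3.11 CPM. The term of Gbp2b was lost without KO1, and that of Gbp2 without KO1 or WT2. The type I interferon signature leaned lower at both times, with 16 of 27 genes lower untreated (median log2FC -0.42), and the nucleic acid sensors likewise, with 14 of 20 lower. The term was positive and passed for 5 type I signature genes (Parp14, Slfn8, Ifit2, Cmpk2 and Ifi44l) and for 5 sensors (Ifi207, Ifi202b, Ifi204, Ifi211 and Ddx58), and negative and passed for 0 in either list. The term of Ifi44l was lost without KO1, KO2, WT1 or WT2, and that of Ifi204 without KO1 or WT2.

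Dicer1 was less different before IFNG (log2FC -0.43 untreated and -0.80 after, difference -0.36, SE 0.05, adjusted p = 5.66e-05 in edgeR). In CPM, Dicer1 was 105, 128 and 123 in the untreated WT clones and 71.5 and 105 in KO1 and KO2, so that every WT clone mean was higher after IFNG than untreated, while KO1 and KO2 moved by a few CPM in opposite directions. Calcrl had a lower mean after IFNG than untreated in every clone. In WT1, WT2 and WT3 it was 8.26, 12.5 and 14.7 CPM untreated and 3.62, 4.02 and 4.84 CPM after IFNG. In KO1 and KO2 it was 25.7 and 22.8 CPM untreated and 14.8 and 14.3 CPM after IFNG. Cxcl2 had no called difference untreated (log2FC 0.22, SE 0.36, adjusted p = 0.701) and a difference of 1.48 after IFNG. Tnf (difference 0.57) and Tap1 (0.44) also had a positive term, and that of Tnf was lost without KO1, WT2 or WT3. Art3 and Adgre1 showed no called change of their difference with IFNG (adjusted p = 0.622 and 0.981 in edgeR).

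**Figure D5:**
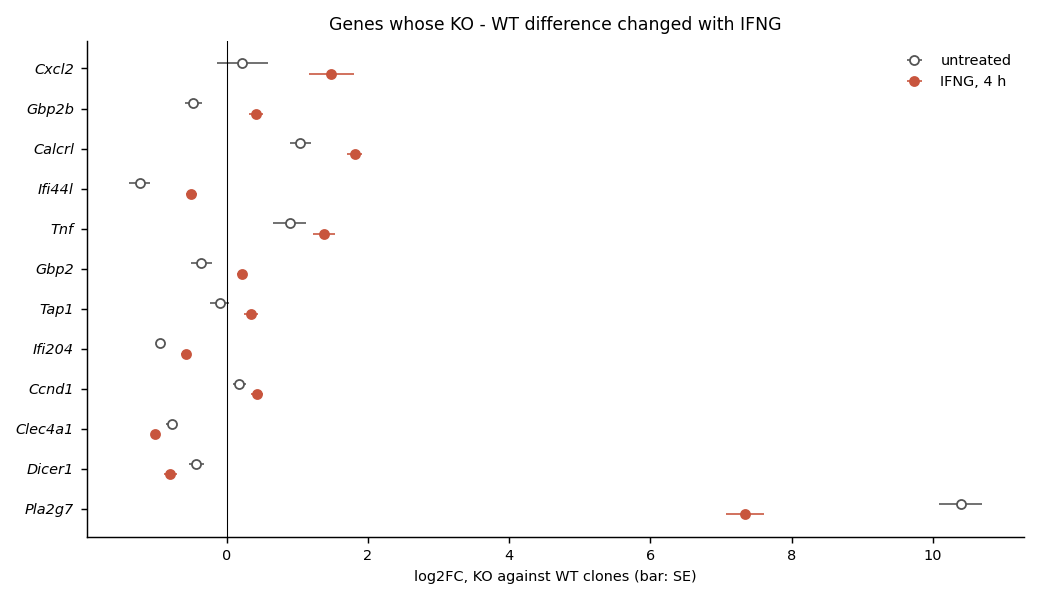
The log2FC of KO against WT in untreated (open) and IFNG-treated (filled) libraries, with bars for the SE, for the 12 described genes that passed the treatment by genotype test. Gbp2b, Gbp2 and Tap1 are below 0 untreated and above 0 after IFNG, and Dicer1 is further below 0 after IFNG.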

How the data were processed

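Polyadenylated RNA was sequenced as paired-end 150 bp reads from 30 libraries of 5 J774A.1 clones. Per the labels and the study's methods, BBDuk trimming was followed by HISAT2 2.1.0 alignment to mm10 and by SAMtools 1.10, and the authors kept fragments with a unique alignment, merged technical replicates and counted fragments on the reverse strand per gene with featureCounts 1.6.2, letting a fragment count for each gene it overlapped, so that overlapping genes share fragments. The deposited file used holds raw counts per gene, and its header names the gencode vM18 annotation whereas the methods name RefSeq. RNA input and adapters varied between libraries in a way the sources used here do not assign. The columns for WT2 and WT3 carry other names and were assigned through deposited tables titled WT2 and WT3.

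From the counts, edgeR 4.0.16 (R 4.3.3) was run with its default expression filter, TMM scaling and two-sided quasi-likelihood tests, with Benjamini-Hochberg adjustment over all genes tested. The fit took genotype as the only term, and the treatment by genotype fit took clone, treatment and the interaction of treatment with genotype. Alternatives used DESeq2 1.42.0, limma 3.58.1 (voom with clone as a random block), other scalings and filters, counts summed per clone, and left-out clones or libraries. The edgeR, DESeq2 and limma tests were checked on simulated data. CPM values use TMM-scaled library sizes, and SE refers to the fitted log2FC. Values per library rest on 15579730 to 37992642 counted fragments, which limits the precision of genes near 1 CPM.

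Genes were named by rule: Dicer1, Pla2g7, Art3 and Calcrl, then the 12 largest differences each way, and the 3 largest in each of 30 lists, among called genes of at least 1 CPM with both KO clone means outside the WT clone range, leaving out gene models named Gm or Rik (245 of these qualified), and finally a fixed set (Irf1, Ciita, Cd74, Gbp2, Cxcl9, Cxcl10, Nos2, Tnf, Il1b, Csf1r and Adgre1). Some genes that the rule names are not reported here. Other list members named in the text were chosen after their values were seen. The members and lists were chosen with earlier results of these data known. Guide sequences came from the study's oligonucleotide table and promoters from RefSeq.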

Additional observations from a re-analysis of the deposited data

Results flagged for a closer look

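Among 204 sets of libraries (102 genes in WT and in KO), 10 had a library whose gap to its nearest neighbour was a large share of the range (Dixon's ratio). The cutoff gives about 1 in 20 for independent draws from 1 normal distribution. That rate does not hold here, since each set mixes libraries of different clones. In KO, the highest library stood off for Ccdc125 (ratio 0.778), Bcl3 (0.66), Emb (0.658) and Cd74 (0.708), the last at 468 CPM in a KO1 library against 364 CPM in the next. In WT, a single WT1 library stood high for Dhx58 (ratio 0.55), Calr (0.531) and Vwf (0.501) and low for Slc16a1 (0.605), whereas a WT2 library stood low for Il18 (0.556) and another high for Nfkbid (0.502).

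For 12 of the genes described, the KO - WT log2 difference changed with IFNG (edgeR's treatment by genotype term, difference after IFNG minus untreated). It moved towards higher levels in KO for Cxcl2 (1.23), Gbp2b (0.85), Calcrl (0.75), Ifi44l (0.73), Tnf (0.57), Gbp2 (0.55), Tap1 (0.44), Ifi204 (0.35) and Ccnd1 (0.24). It moved towards lower levels for Dicer1 (-0.36), Clec4a1 (-0.22) and Pla2g7 (-2.96). The Pla2g7 value depends on the prior count, since the 9 untreated WT libraries held 2 fragments in all against 3151 in the 6 KO libraries, a ratio per fragment sequenced of 2059 with an exact 95% counting interval of 569 to 17005.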

How the results depend on the processing

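The count of genes called after IFNG was 3258, and it moved to 1 with counts summed per clone, 835 in limma-voom with clone as a random block, 1411 without KO1 and 5992 without WT1. KO1 against WT (2934 called) moved to 6291 without WT1 and to between 1691 and 3493 when a library was left out. KO2 against WT (1411) moved to 4994 without WT1, 851 without WT2 and between 533 and 1796 with a library left out. The untreated count (3689) moved to 1674 without KO1 and 6472 without WT1. The treatment by genotype count (150) moved to 384 with no count filter, 21 without KO1, 570 without WT1, 35 without WT2 and 73 without WT3. The fits that left out single libraries for KO1 and KO2 were added after seeing the data. The cause of these moves was not tested. Of the 96 called genes named by rule, 87 stayed called in every fit without a single library, and none changed sign under any alternative. Of 15 such fits, Crym kept its call in 5, Bcl2a1d in 6, Nfkbid in 7, Cd80 in 8, Aldoc in 11 and Il12rb1 in 12. Tap1, F11r and Emb each kept theirs in 14. Most of the 96 were named because they were called with both KO clone means outside the WT clone range. A kept call or sign was therefore largely set by the rule and is not separate support. Nos2, which was not called, reversed to 2.37 without WT1. DESeq2 ended 2 of the 96 calls, RLE size factors 0 and scaling on chromosome 12 genes 3. On the other side, calls were gained by Cd74 without WT1, without the WT1 library 3 alone (log2FC 0.88) and with chromosome 12 scaling, and by Cxcl10 without KO2. No paired analysis was possible because the columns carry no replicate number, so the planned replicate blocks were not run. At these depths Ciita, H2-Aa and Il1b held too few fragments to be tested.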
